A study of Homo sapiens with 4 samples.

Results

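The genes of the interferon-γ (IFN-γ) receptor and its JAK-STAT cascade were followed in a RIP-seq experiment, in which RNA pulled down with the m6A reader YTHDF1 was sequenced beside input RNA. The genes were taken by name: the receptor chains IFNGR1 and IFNGR2, the Janus kinases JAK1, JAK2 and TYK2, the transcription factors STAT2 and STAT3, and the feedback inhibitors SOCS1 and SOCS3. Of these 9 genes, 7 had at least 1 row in the deposited table of annotated windows, with 36 rows among the 26819 distinct windows of 7550 genes. IFNGR1 and JAK1 had no row. All 4 libraries came from SNU638, an established human gastric cancer cell line that overexpressed YTHDF1, spent 24 h without serum and then received 10 ng/ml IFN-γ over 24 h. The groups were IP-YTHDF1 and Input, each with 2 biological replicates. Input is RNA of the lysate before pull-down, and per the methods the pull-down used an antibody to FLAG, so the values concern an overexpressed, tagged reader. None of the 4 libraries is from cells without IFN-γ, from cells with normal YTHDF1 levels or from an IgG pull-down. The values therefore describe binding in the presence of IFN-γ, not a response to it.

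IFN-γ binds a receptor made of a ligand-binding chain, IFNGR1, and a signaling chain, IFNGR2. The chains carry the kinases JAK1 and JAK2, which phosphorylate the receptor and then STAT proteins, and STAT dimers move to the nucleus and switch on interferon-stimulated genes. TYK2 and STAT2 belong mainly to the related type I interferon cascade, STAT3 is best known downstream of interleukin-6, and SOCS1 and SOCS3 are induced by the cascade and shut the kinases off. YTHDF1 binds mRNA that carries N6-methyladenosine (m6A), a mark that is placed mostly within the DRACH consensus.

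Rows of the table stand for stretches of 50 bp, and each carries a signal value together with its p-value and q-value. No source used here states the unit of the signal value or how IP-YTHDF1 and Input enter it, and it served only to order windows. Values of single libraries are not in the table, so no spread between replicates can be given and no test between groups could be run. Sequencing depth was not examined here. The paper describes its coding peaks as a union over replicates. If this holds for the deposited windows, a listed window may rest on a single replicate. Over all windows the signal value had a median of 1.84, and its 25th and 75th percentiles were 1.54 and 2.19. Every listed window had a q-value of at most 0.05.

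Listed windows were present at each level of the cascade, from receptor to inhibitors. A window was listed for 1 of 2 receptor chains, 2 of 3 kinases, both STAT genes and both SOCS genes. Over the genome, 31.8% of 20056 protein-coding genes had a listed window, whether or not SNU638 cells express them, so 7 of 9 is above a background that includes silent genes. With the q-value limit lowered to 0.001, 5 of the 9 genes retained a window (IFNGR2, JAK2, TYK2, STAT2 and SOCS1), beside 21.2% of all coding genes. When p-values were held to a Bonferroni limit that counted the 312327 windows estimated as tested in listed genes, 4 retained one (IFNGR2, JAK2, TYK2 and STAT2), beside 12.5% of coding genes. The table lists only windows that passed. The paper counts fewer genes as enriched in this experiment than have a listed window here, so a listed gene need not be in the paper's set. Its ranks run to at least 30397, more than its 26819 windows, so some ranked windows are absent from it. RNA levels were not examined here. For IFNGR1 and JAK1, a low RNA level, a lack of binding and a window left out of the table therefore cannot be told apart.

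The strength of the windows is given here by step, though some steps are mostly 1 gene. Of the 10 windows in kinase genes, 9 reached the median signal value of the whole table, but 9 of these 10 windows are in JAK2. Of the 16 windows in STAT genes, 1 reached it. The receptor had 3 of 7 such windows and the inhibitors 1 of 3. The median signal value was 2.67 over the kinase windows (10 windows), 1.72 over the receptor windows, 1.46 over the STAT windows and 1.10 over the SOCS windows. The last value pools SOCS1 at 2.54 with SOCS3 at 1.10 and 0.89. These are differences in the authors' value within 1 table, windows of 1 gene share their reads, and no test was made of them.

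**Figure D1:**
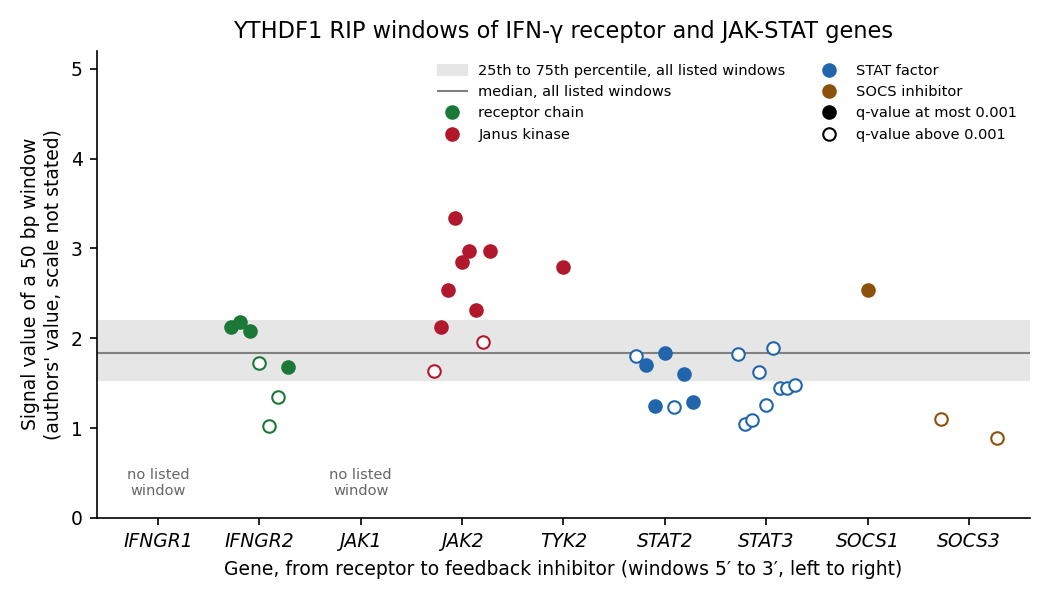
Signal value (y axis, scale not stated) of each listed 50 bp window of the 9 genes (x axis, receptor to inhibitors; windows of a gene run 5′ to 3′ from left to right). Filled points have a q-value of at most 0.001, the grey band spans the 25th to the 75th percentile of all listed windows and the line is their median. JAK2, TYK2 and SOCS1 reach above the band, the STAT2 and STAT3 points lie within or below it, and IFNGR1 and JAK1 have no point.

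Sequences were used only from 250 bases before to 50 bases after RefSeq transcription starts (GRCh38.p14). They covered 7 of the 36 windows in full, 5 of them in JAK2, 1 in STAT3 and 1 in SOCS3, and another 4 in part. DRACH was searched on the transcript strand as A, G or T, then A or G, then AC, then A, C or T. It was found in 4 of the 7 fully covered windows. This share was 38.5% among all 416 listed windows covered in full, and 44.8% among the first 50 bases after 22199 RefSeq starts of coding genes, so motifs of this kind are common in stretches of this length. The following 30-base stretches of the genome, written 5′ to 3′ on the transcript strand, show the motifs that lay in windows of the cascade, in capitals. The strongest JAK2 window is shown as well because it had none.

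JAK2 window 3, chr9:4985091-4985120 (plus strand): gggAGACTgcaggccaaccgggaggctgag

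JAK2 window 4, chr9:4985151-4985180 (plus strand), no DRACH in the window: tcgcccgcggcgttgagaagacggtgtggc

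JAK2 window 5, chr9:4985191-4985220 (plus strand): gtggAGACAactgtgacgggcttcccggct

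JAK2 window 6, chr9:4985292-4985321 (plus strand): gccgctaacggcctccctcggcgcTGACAg

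STAT3 window 9, chr17:42388445-42388474 (minus strand): gcAGACTgggagggggagccgggggttccg

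STAT3 window 9, chr17:42388425-42388454 (minus strand): gggggttccgacgtcgcagccgaggGAACA

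STAT3 window 8, chr17:42388393-42388422 (minus strand): ccccaaccggatcctGGACAggcaccccgg

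SOCS3 window 2, chr17:78359849-78359878 (minus strand): cctttgtGGACTtcacggccgccaacatct

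The window numbers are those of the table, which counts along the chromosome. The first STAT3 stretch lies wholly before the only RefSeq start of that gene, with its motif adenosine at -28 bases, and so outside the annotated transcript. JAK2 window 6 and STAT3 window 8 were covered in part only, and bases outside the covered part were not searched. The 4-letter core GGAC, which is part of the most frequent form of the motif, occurred in 2 of the 7 fully covered windows, against 22.6% of all listed ones covered in full and 19.8% of the stretches after starts. These were SOCS3 window 2 and JAK2 window 1, and in the latter GGAC was not part of a DRACH match. A match describes the letters only, and whether the adenosine is methylated was not measured here.

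At the receptor, IFNGR2 (ENSG00000159128, plus strand of chromosome 21) had 7 listed windows in 4 separate regions. The first region consisted of 3 adjacent windows from 33403447 to 33403596, which began 34 bases after the RefSeq start of the gene. Their signal values were 2.13, 2.18 and 2.08 in 5′ to 3′ order, the highest of the gene, and the middle one had the lowest q-value (2.36e-08). Farther along, the window at 33414947 to 33414996 had a signal value of 1.72, and that at 33421547 to 33421596 had 1.02. Toward the 3′ side, adjacent windows from 33432747 to 33432846 had 1.35 and 1.68. Signal was thus highest at the 5′ end, and only 2 of the 7 windows were below the 25th percentile of the table. The pair at the 3′ side overlapped a window of TMEM50B on the opposite strand, by 11 and 39 bases, whose signal value was 1.97. The libraries were made with a stranded kit per the labels, but whether strand was used in counting is not given in the sources used here, so reads of these genes may not be separable there. Without this pair IFNGR2 keeps 5 windows.

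The receptor's ligand-binding chain IFNGR1 (chromosome 6, 137197484 to 137219385) and the kinase that it carries, JAK1 (chromosome 1, 64833229 to 65067746), were both without a listed window. The RNA of the signaling chain and of its kinase JAK2 thus had windows in the table, and that of the ligand-binding chain and JAK1 had none.

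JAK2 (ENSG00000096968, plus strand of chromosome 9) had the strongest windows of the cascade. All of its 9 listed windows lay within 500 bp, from 4984991 to 4985490, in a gene of 145559 bp. The estimated 42 tested windows cover only a small part of that length, and their positions are not known. They fell into blocks of 5 and 4 adjacent windows with 1 unlisted window position between them. In 5′ to 3′ order, the first block had signal values of 1.63, 2.12, 2.54, 3.34 and 2.85, and the second had 2.97, 2.31, 1.96 and 2.97. The values of the first block rose to a summit in window 4, and those of the second block were highest at both of its ends. The summit, from 4985141 to 4985190, had a q-value of 2.05e-13 and a signal value above 98.7% of the other listed windows. The stricter q-value limit was met by 7 of the 9 windows, and 5 passed the Bonferroni limit.

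The JAK2 windows surrounded RefSeq starts. The annotation gives starts of JAK2 transcripts at 4984390, 4985086, 4985272 and 5041532. The second lies in window 2, and the one after it lies in the unlisted position between the blocks. The windows began 601 bases after the first start. Whether they are exonic or intronic, or lie in the untranslated leader, was not analysed here, because no exon annotation was used.

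The listed JAK2 windows are not all that passed. Because q-values were adjusted within a gene, dividing them by p-values shows how many of its windows were tested and where in the order of p-values each one stood. For JAK2 it gave an estimate of 42 tested windows, and the weakest listed window stood at position 11, so at least 2 windows that passed are not listed. Their location is unknown, and the crowding at the 5′ end holds for the listed windows only. STAT3, the other gene with 9 listed windows, showed no such skip: its weakest window stood at position 9 of 61 tested. The lack of a skip does not show that its list is complete, since unlisted windows with higher p-values than the listed ones leave none. A skip was seen in 470 of the 897 genes with 9 windows. No gene identifier in the table has more than 9 windows, and 12.8% of listed coding genes have 9.

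TYK2 (ENSG00000105397, minus strand of chromosome 19) had 1 listed window of about 92 tested, at 10375780 to 10375829. Its signal value was 2.79 with a q-value of 1.21e-10, higher than in 94.2% of the other listed windows. The window lay 4743 bases after the only RefSeq start given for the gene, so TYK2 differed from JAK2 in number and placement of windows although both had strong ones. Among the 1934 coding genes with a single listed window, the median signal value was 2.07, and TYK2 exceeded 91.9% of them.

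**Figure D2:**
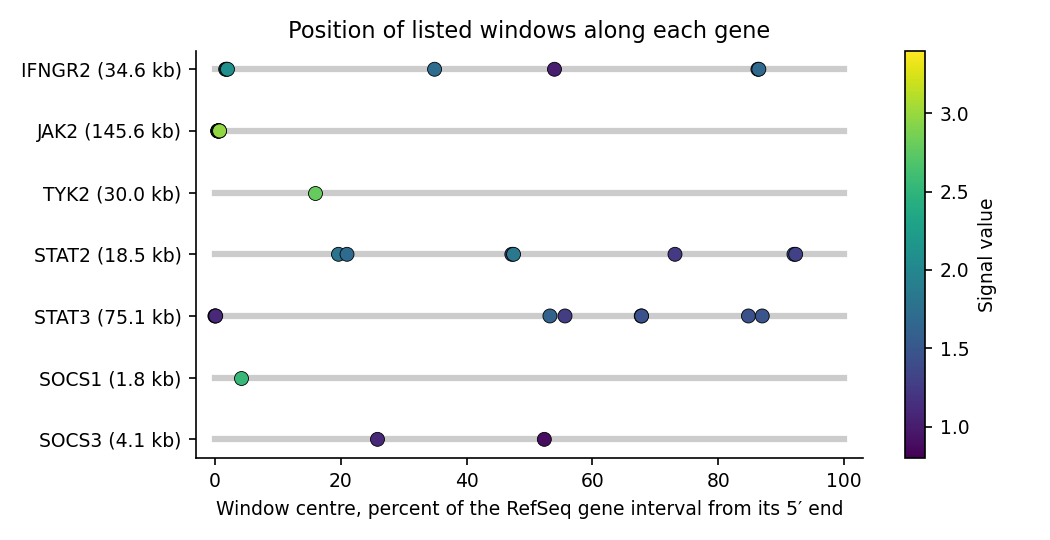
Centre of each listed window (points, coloured by signal value) as percent of the RefSeq gene interval from its 5′ end (x axis) for the 7 genes with a window (y axis, gene length in brackets). The JAK2 points fall on one another between 0.430% and 0.739% of the gene, while those of IFNGR2, STAT2 and STAT3 run over most of the gene. By the estimated numbers of tested windows, only part of each interval was tested, and which part is not known.

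The STAT genes had many windows of low signal. STAT2 (ENSG00000170581, minus strand of chromosome 12), the partner of IRF9 in the type I interferon response, had 7 windows in 5 regions spread over 13500 bp of an 18511 bp gene. In 5′ to 3′ order the signal values were 1.80, 1.70, 1.24, 1.83, 1.23, 1.60 and 1.29, all below the table's median of 1.84. The order by signal was not that by p-value. The window at 56343048 to 56343097 near the 3′ end, with a signal value of 1.60, had the lowest q-value of the gene (3.53e-06) and passed the Bonferroni limit. The strongest window, at 56351298 to 56351347, had a q-value of 0.00063, while the weakest, with a signal value of 1.23, also had the highest q-value (0.0357). In JAK2, by comparison, a window with nearly the same signal value, 1.63, had a q-value of 0.0193.

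STAT3 (ENSG00000168610, minus strand of chromosome 17) had 9 windows in 6 regions. At the 5′ end, 3 adjacent windows lay at and just after the only RefSeq start given, 42388442, with signal values of 1.82, 1.05 and 1.09 in 5′ to 3′ order, the first of them at the start itself. In the interior, signal values were 1.62 at 42348425 to 42348474 and 1.26 at 42346625 to 42346674. An adjacent pair from 42337475 to 42337574 had 1.89 and 1.44, and the windows nearest the 3′ end had 1.44 and 1.48. The strongest of the 9, 1.89, exceeded 54.1% of the other windows in the table. No STAT3 window had a q-value of 0.001 or less, and the lowest was 0.00323. STAT3 and JAK2 thus had the same number of listed windows, and all of STAT3's were below the median JAK2 window of 2.54.

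The feedback inhibitors differed from each other. SOCS1 (ENSG00000185338, minus strand of chromosome 16), which blocks JAK2 and is the main brake on IFN-γ signaling, had 1 listed window of 26 tested, at 11256106 to 11256155. It lay 49 bases after the RefSeq start, in a gene of 1788 bp, and had a signal value of 2.54 with a q-value of 0.000103. SOCS3 (ENSG00000184557, minus strand of chromosome 17), which acts mostly on interleukin-6 family receptors, had 2 listed windows of 56 tested. They lay at 78359829 to 78359878 and at 78358729 to 78358778 and had signal values of 1.10 (q = 0.0139) and 0.89 (q = 0.0233). The SOCS1 window exceeded 89.0% of the other windows in the table, and the stronger SOCS3 window exceeded 5.28%. The SOCS3 windows were the weakest of the cascade when each gene is represented by its strongest window.

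**Figure D3:**
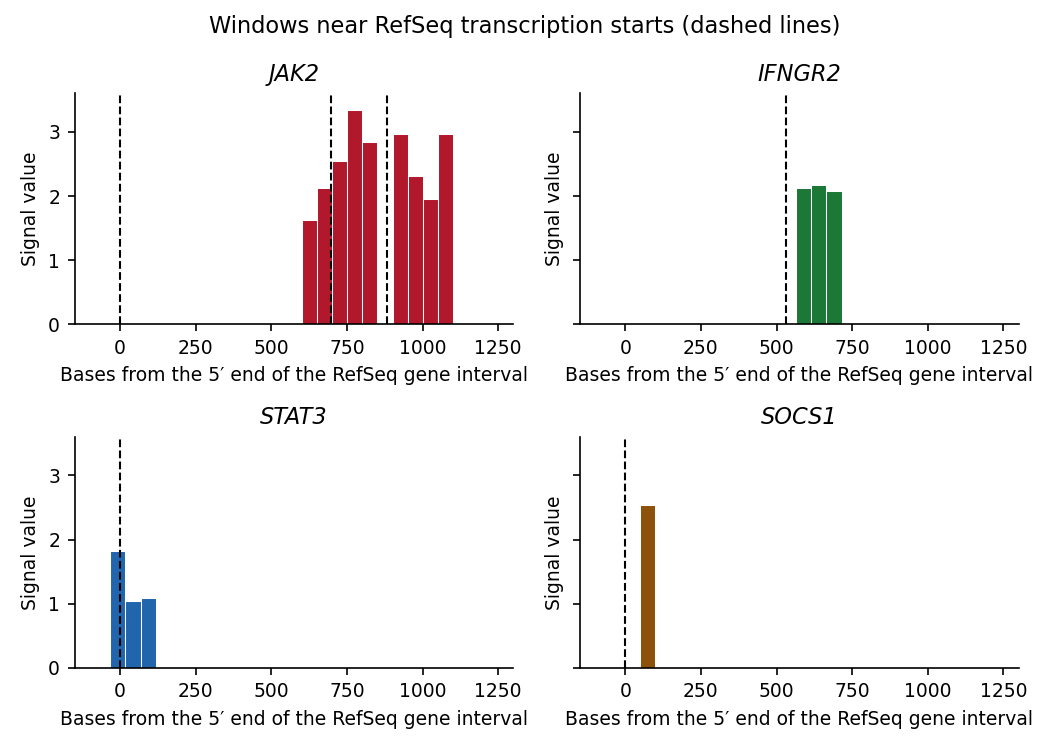
Signal value (y axis) of the windows of JAK2, IFNGR2, STAT3 and SOCS1 close to the 5′ end of the RefSeq gene interval (x axis, bases from that end). Each bar is a 50 bp window and dashed lines are RefSeq transcription starts. JAK2 windows lie around its inner starts, with the summit of 3.34 between them, and the SOCS1 window lies 49 bases after its start.

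In 4 of the 7 genes (IFNGR2, JAK2, SOCS1 and SOCS3) the strongest window lay within 500 bases of a RefSeq start. This was so for 38.0% of the 5273 listed coding genes with a start in the reference, and over all windows of such genes the share was 30.7%, against 17 of the 36 windows of the cascade. Of these 17, 9 are the JAK2 cluster, and without JAK2 the count was 8 of 27, close to that share. The 4 genes depended on which start was taken. When the distance was measured to the outermost 5′ end of the gene interval alone, 1 gene was left (SOCS1), against 31.0% of all. The strongest window lay 615 bases from the outermost start in IFNGR2, 751 in JAK2 and 1047 in SOCS3. The distance limit was chosen after the windows were seen.

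Ordered by their strongest window, the genes ran from JAK2 (3.34) over TYK2 (2.79), SOCS1 (2.54), IFNGR2 (2.18), STAT3 (1.89) and STAT2 (1.83) to SOCS3 (1.10). The median over the 7 genes was 2.18, and over all 6679 listed coding genes it was 2.23. Without a spread between replicates, neighbours in this order, such as STAT3 and STAT2, cannot be said to differ. JAK2 exceeded 96.7% of listed coding genes, TYK2 85.1% and SOCS1 73.7%. IFNGR2 exceeded 46.0%, STAT3 20.2%, STAT2 14.6% and SOCS3 0.494%.

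The strongest value of a gene tends to be higher where more windows are listed, so genes were also set beside coding genes with the same number of windows. JAK2 exceeded 93.6% of the 854 coding genes with 9 windows, whose median was 2.48, and STAT3 exceeded 10.6% of them. Among the 260 coding genes with 7 windows, with a median of 2.46, IFNGR2 exceeded 25.5% and STAT2 6.95%. SOCS1 exceeded 85.0% of the genes with a single window, and SOCS3 exceeded 0.511% of the 1175 genes with 2. TYK2, as given above, stood at 91.9%, so the order of the 7 genes by these percentages was that of their strongest windows.

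**Figure D4:**
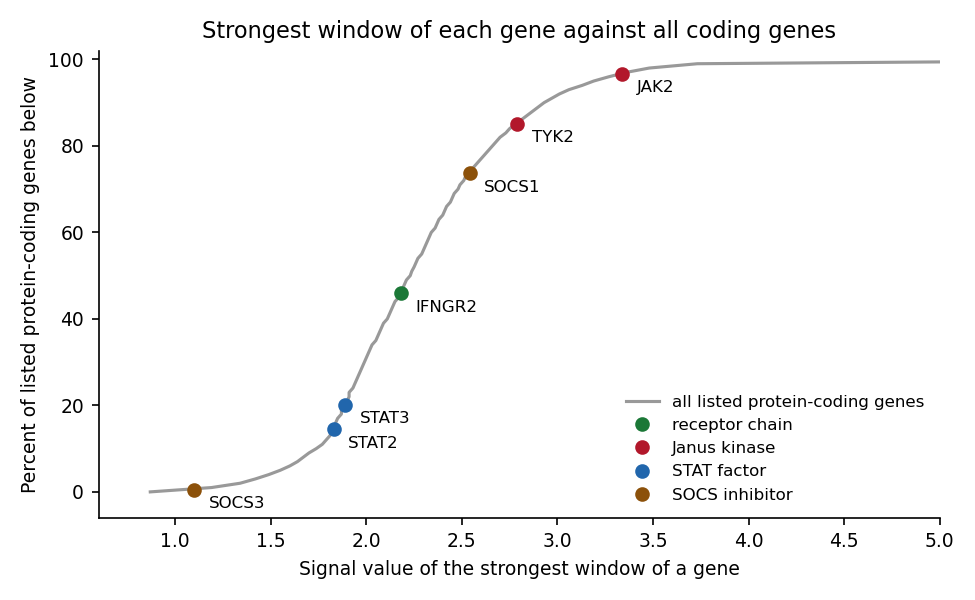
Signal value of the strongest window of each of the 7 genes (x axis) against the percent of listed protein-coding genes with a lower strongest value (y axis). The grey curve is the distribution over all listed coding genes. JAK2 stands at 96.7% and SOCS3 at 0.494%.

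The share of tested windows that were listed gave another order. It was 21.4% in JAK2 (9 of 42), 16.3% in IFNGR2 (7 of 43), 14.8% in STAT3 (9 of 61) and 8.33% in STAT2 (7 of 84). In SOCS1 it was 3.85% (1 of 26), in SOCS3 3.57% (2 of 56) and in TYK2 1.09% (1 of 92). The median over listed coding genes was 8.89%, with 25th and 75th percentiles of 5.19% and 13.7%. JAK2, IFNGR2 and STAT3 were above that range, and TYK2, SOCS1 and SOCS3 were below it. TYK2 therefore combined a strong window with the smallest listed share of the 7 genes, and STAT3 combined weak windows with a large share.

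**Figure D5:**
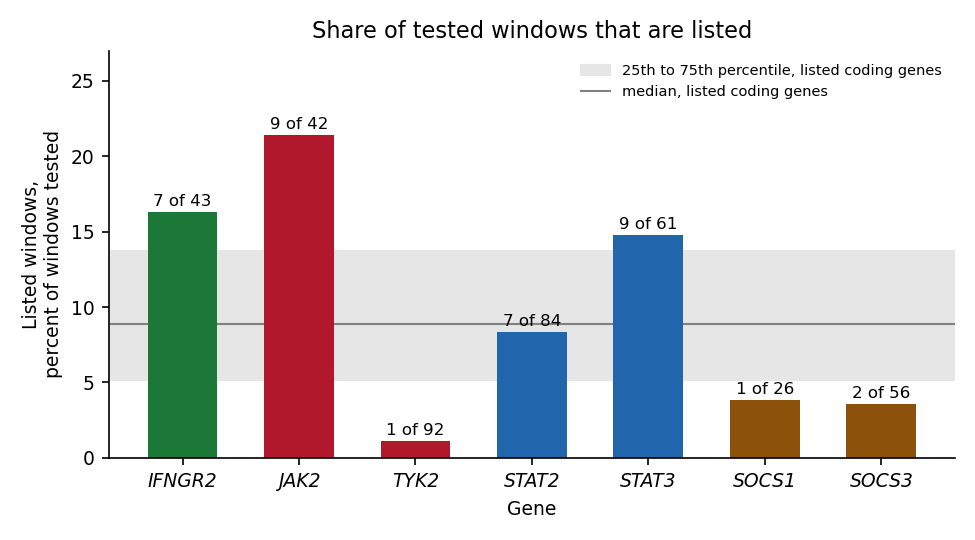
Listed windows as percent of the windows tested (bars, y axis from 0) for the 7 genes, with both counts above each bar. The grey band spans the 25th to the 75th percentile of listed coding genes, and the line is their median of 8.89%. For JAK2 the bar is a lower bound, because at least 2 windows that passed are not listed, and for STAT3, also with 9 windows, it may be one.

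Other genes of JAK-STAT signaling were counted from a list of 29. A window was listed for 19 of them, next to the 31.8% of all coding genes, and 68 windows were listed in all. All 6 other members of the SOCS family had one (CISH, SOCS2, SOCS4, SOCS5, SOCS6 and SOCS7), as did all 4 PIAS genes (PIAS1, PIAS2, PIAS3 and PIAS4), which encode SUMO ligases that restrain STAT activity. Among other receptor chains, IFNLR1, IL10RB and IL6ST had windows, and the type I interferon receptor chains IFNAR1 and IFNAR2 had none. STAT5B, STAT6 and IRF9 had windows, and STAT4 and STAT5A did not. The adaptor SH2B3 had windows, whereas SH2B1 and the kinase JAK3 had none. Of the phosphatases and the deISGylase USP18, which blocks type I interferon signaling, PTPN11 and USP18 had windows, and PTPN1, PTPN2, PTPN6 and PTPRC did not.

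The highest signal value on this list, 3.45, was in IL6ST, the shared chain of interleukin-6 family receptors, which had 4 windows. It was followed by SOCS5 with 2.95, PIAS2 with 2.86, SOCS7 with 2.67, SH2B3 with 2.42 and CISH with 2.35. The strongest windows of IL6ST, PIAS2 and SH2B3 lay 68, 39 and 26 bases after a RefSeq start and that of CISH 5034 bases after one, and no start was matched for SOCS5 and SOCS7. The median of the strongest value over the 19 genes was 2.15, beside 2.18 for the 7 genes described above and 2.23 for all listed coding genes. Both lists were therefore near the middle of the table in strength, although single genes in each stood near its ends. None of the 8 SOCS family genes lacked a window, and SOCS3 was the weakest of them.

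The interferon regulatory factors, a family of transcription factors in interferon responses that includes IRF9 from the list above, had a window in 5 of 9 genes, with the highest signal value in IRF1 (2.37). NF-κB subunits, their inhibitors and the IκB kinase complex had one in 9 of 13, with the highest value in NFKB1 (2.91). Both counts stand beside the same 31.8% of all coding genes. By signal value JAK2 was above IRF1 and NFKB1, TYK2 and SOCS1 lay between them, and IFNGR2, STAT3, STAT2 and SOCS3 lay below both. The order by q-value differed. The strongest IRF1 window had a q-value given as 0, below that of any window of the cascade, where the lowest was 2.05e-13 in JAK2. For the strongest NFKB1 window it was 3.64e-09. These lists are set side by side as counts and values, and no difference between them was tested.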

How the data were processed

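YTHDF1-bound and input RNA of SNU638 cells were sequenced in 2 libraries each. The submitters' processing notes name STAR 2.7.3a and GRCh38; the peak caller is not given in the sources used here. The authors deposited 1 table of 26820 annotated 50 bp windows, 1 of them repeated and dropped. The deposited signal value and rank were treated as a score with no stated scale. Per window, the deposited p-value and its adjusted form, the q-value, were taken as the authors gave them, and no differential test was run here, since 0 columns belong to a single library. Replicates could not be told apart, and whether a listed window was found in both of them is not known.

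Tested windows of a gene were estimated as the smallest whole number that explained each q-value as Benjamini-Hochberg adjustment within the gene. It met all windows in 96.3% of genes with an estimate, and 47 genes gave none. The number can be too low in genes where windows of lower p-value are not listed. The limit over all listed genes used 312327 tested windows. Background shares were counted over 20056 RefSeq protein-coding genes of GRCh38.p14, to which 6370 of 6674 coding symbols matched. Table starts count from 0 and are given here from 1. Of the windows with a RefSeq gene, 98.1% had their centre inside its interval. RefSeq starts and sequences were matched by symbol for 5273 listed coding genes. The sequences are RefSeq's and reach 250 bases before to 50 after a start.

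All 9 genes were named whether listed or not. Of the 29 other pathway genes, all were named and the 6 with the largest signal value were given with values, and other lists by counts and their strongest gene. Genes and lists were chosen with earlier results of these data known. Computation used NumPy 2.4.6, pandas 2.3.3 and SciPy 1.17.1 under Python 3.11.15, with plots drawn in matplotlib 3.10.9.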

Additional observations from a re-analysis of the deposited data

How the results depend on the processing

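No paired analysis was possible because the values in use are 1 per window, with none per replicate. For the same reason no fit of IP-YTHDF1 against Input was run, with a replicate block or without single libraries. Wider windows for the motif search were not run, because the sequence outside the stretches around starts was not used here.

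The 7 genes with a window became 5 at a q-value of at most 0.001 and 5 at signal values at or above the median. All 7 kept at least 1 window when q-values were adjusted over all listed genes, and 4 were left by the Bonferroni limit. The 36 windows became 18 at the stricter q-value, 8 under Bonferroni, 14 at or above the median signal value and 21 when touching windows were joined. They were 33 with adjustment over all listed genes, and 34 without windows that overlap another gene. Of the 19 other pathway genes, 6 were left under Bonferroni. The background of 31.8% became 21.2% at the stricter q-value, 31.3% with adjustment over all listed genes, 12.5% under Bonferroni and 26.9% at or above the median. STAT3 and SOCS3 lost all windows at the stricter q-value and under Bonferroni, and SOCS1 lost its window under Bonferroni. At or above the median, STAT2 and SOCS3 had none. The 4 genes with the strongest window near a start were 4 at limits of 250 and 1000 bases and 1 when the outermost start was used. With partly covered windows included, 6 windows held DRACH in place of 4. Neither depth nor expression was examined here, so a gene without a row cannot be read as unbound.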
